A study of Canis lupus familiaris with 25 samples.

Results

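The desmosome genes examined here are the desmogleins DSG1, DSG2 and DSG3, the desmocollins DSC1, DSC2 and DSC3, the armadillo proteins PKP1, PKP3 and JUP, and desmoplakin, DSP. They were chosen by gene symbol, and all 10 were found among the 24532 genes of the count table. The counts come from QuantSeq 3′ libraries of formalin-fixed, paraffin-embedded (FFPE) canine tumors, in which reads start close to the 3′ end and each transcript gives about one. There were 10 samples of hepatoid gland adenoma (HGA), benign perianal tumors of dogs aged 8 to 14 years, 11 of primary apocrine gland anal sac adenocarcinoma (AGASAC), malignant tumors of dogs aged 8 to 12.5 years, and 4 sublumbal lymph node metastases from dogs of 8 to 10 years. Each metastasis came from the dog of the AGASAC primary tumor with the same number, 1 to 4. All were surgical specimens of pet dogs of differing breeds, no treatment was named for any group, and tissue beside the tumor had been removed by the study before sections of the remaining block were used whole. Each group held males and females. The labels did not mark 6 of 10 HGA dogs, 2 of 11 primary AGASAC dogs and 1 of the 4 dogs with a metastasis as neutered. Neuter status as labelled thus differed between the tumor types, and its part in the values was not tested.

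A desmosome is a spot-like junction that joins neighboring epithelial cells and anchors their keratin filaments. Desmogleins and desmocollins are cadherins that span the membrane and bind those of the next cell, plakoglobin (JUP) and the plakophilins bind their tails inside the cell, and desmoplakin connects this plaque to the keratins. DSG2 and DSC2 occur in simple and stratified epithelia alike, whereas DSG1, DSG3, DSC1 and DSC3 are known from stratified epithelia such as epidermis, DSG3 and DSC3 mainly in the lower layers and DSG1 and DSC1 mainly in the upper ones. No nucleotide or protein sequences of the genes were analysed here.

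Library totals ranged from 1562347 to 6389555 counts in HGA, from 2581453 to 4218340 in primary AGASAC and from 2857541 to 3289546 in the metastases. Levels are given in CPM, counts scaled to the library total with TMM factors over all 25 samples, and a count of 0 in a library allowed a level of up to 0.543 to 1.84 CPM, taken as 3 counts. The share of RNA fragments over 200 nucleotides (DV200) lay between 70.2% and 92.7%. Keratins of the stratified basal epithelium (KRT5, KRT14, KRT15 and KRT17) with TP63 summed to 3280 to 13174 CPM in HGA and to 0 to 39.9 CPM in primary AGASAC. Markers of the simple glandular epithelium (KRT7, KRT8, KRT18, KRT19 and EPCAM) summed to 409 to 731 CPM in HGA and to 3556 to 6221 CPM in primary AGASAC. A list of hepatoid or sebaceous markers (KRT79, CIDEA, PLIN2, FASN and MOGAT1) summed to 1408 to 8041 CPM in HGA and 518 to 2278 CPM in primary AGASAC. These sums overlapped, so the HGA label could be checked only in part. KRT79 alone of the 5 had no count in any primary AGASAC, and each of the 5 had counts in HGA. The overlap lay between HGA 10 with 1408 CPM and AGASAC 11 with 2278 CPM. The next lowest HGA was HGA 8 with 4107 CPM.

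HGA and primary AGASAC differed in the levels of some desmosomal cadherins. DSG1 and DSG3 were high in every HGA and at or near 0 in AGASAC, DSC3 was higher in every HGA than in any AGASAC, where it reached 10.4 CPM, and DSG2, DSC2 and JUP were present in every tumor of both kinds. DSP was higher in HGA, with overlapping groups. Calls required a log2 fold change (log2FC) of 1 or more in size and an adjusted p (Benjamini-Yekutieli) no higher than 0.05 in edgeR's quasi-likelihood test. Of the 10 desmosome genes 9 passed the filter on low counts, of which 4 were called higher in HGA and 0 were called lower, against 25.1% of the 12070 genes tested called in either direction and 12.6% called higher in HGA. DSG1, DSG3 and DSC3 were both called and without overlap between the groups, against 4.28% of all genes. DSG1, DSG3 and DSC3 passed the filter through the HGA libraries alone and so had to differ, and of the other 6 genes tested DSP was the 1 called. With library size alone in place of TMM, the median log2FC of all genes shifted by -0.30 and 32.8% rather than 50.2% of all calls were higher in HGA, while the same number of desmosome genes, 4, was called.

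**Figure D1:**
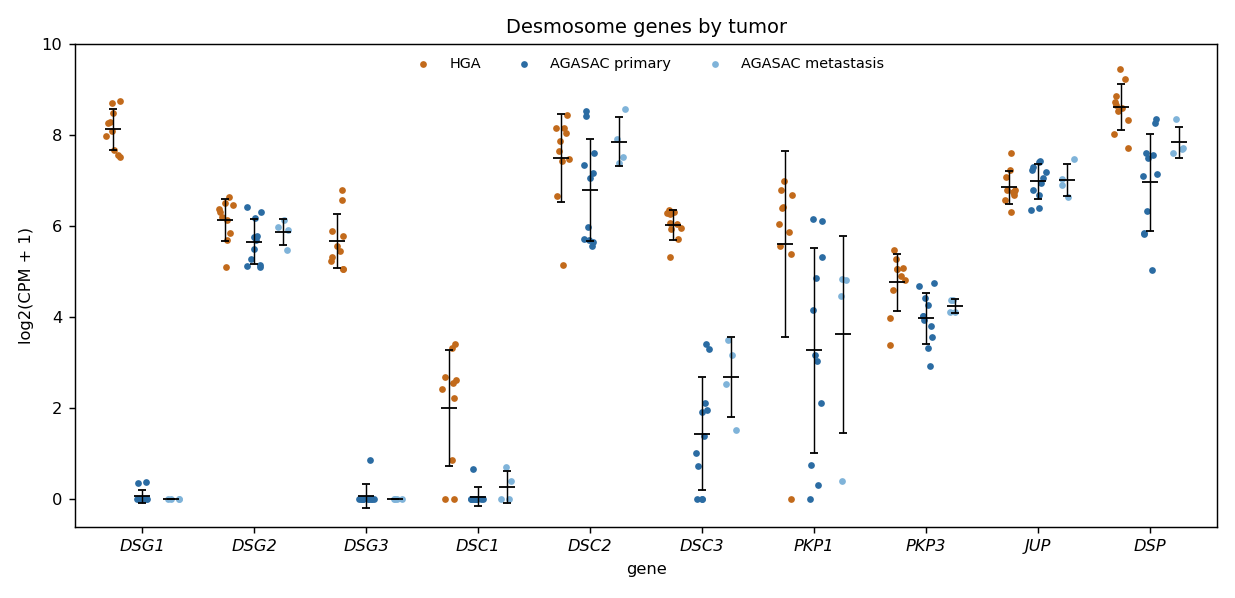
Level of each desmosome gene as log2(CPM + 1) on the y-axis, by gene on the x-axis, with 1 point for each of the 10 HGA, 11 primary AGASAC and 4 metastases and bars for the mean ± SD. DSG1, DSG3 and DSC3 of HGA lie above all AGASAC samples, the JUP groups lie at about the same height, and PKP1 spreads from near 0 upward in both AGASAC groups.

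DSG1, the desmoglein of upper epidermal layers and the target of autoantibodies in human pemphigus foliaceus, ranged from 183 to 432 CPM in HGA with a median of 288. Among the primary AGASAC, 1 count was found in AGASAC 1, 1 count in AGASAC 9 and none in the other 9 tumors. Every HGA was thus far above every AGASAC. The pooled ratio of HGA to primary AGASAC was 5260, with a 95% counting interval of 1456 to 43439 that rests on the 2 AGASAC counts and covers counting error only. The test over all genes gave an adjusted p of 1.04e-15. In a bulk sample, fewer cells of a type and less RNA per cell cannot be told apart.

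DSG3, the desmoglein of the basal layers and the main antigen of human pemphigus vulgaris, had 32.2 to 109 CPM in HGA with a median of 44.7. All 3 counts of the primary AGASAC were in AGASAC 4, and the other 10 tumors had none. The highest levels were those of HGA 2 with 109 CPM and HGA 4 with 94.7 CPM. Here the pooled ratio was 591, with a counting interval of 202 to 2869 and an adjusted p of 2.99e-11. Both DSG1 and DSG3 passed the filter through HGA in smaller sets too and were called within each of the 3 RNA extraction batches that held at least 2 tumors of each kind and within naming series A, the libraries whose sequencing file names share one of 2 patterns, with adjusted p of at most 0.0153 for DSG1 and 0.0474 for DSG3, which is no separate support for a difference. By file name 9 of 10 HGA were in series A and 7 of 11 primary AGASAC in series B. Tumor type and naming series thus largely coincided in the comparison over all 21 primary tumors.

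DSG2, the desmoglein found in nearly all desmosome-bearing tissues, had 33.4 to 98.4 CPM in HGA with a median of 75.9 and 33.2 to 85.0 CPM in primary AGASAC with a median of 50.6. The ranges were nearly the same. The log2FC was 0.48 ± 0.20 (SE), with a 95% interval of 0.06 to 0.91 and an adjusted p of 0.535, so no difference passed the test.

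Among the desmocollins, DSC3, known from the basal layers, was called higher in HGA. In HGA it ranged from 38.7 to 80.4 CPM with a median of 65.7, and in primary AGASAC from 0 to 9.64 CPM with a median of 1.63. The highest AGASAC values were 9.64 CPM in AGASAC 1 and 8.90 CPM in AGASAC 3, AGASAC 7, 9 and 10 had no count, and the groups did not overlap, as in 9.13% of all genes tested. The log2FC was 4.54 ± 0.53 (SE) with an adjusted p of 2.44e-06. In this fit over all primary tumors DSC3 passed the filter through the HGA libraries alone, so its call is no separate support for a difference. Within the extraction batches it was 4.21 in batch 5 (adjusted p = 0.723), 5.00 in batch 6 (adjusted p = 0.0138) and 3.96 in batch 8 (adjusted p = 0.135), where 5 or 6 tumors entered each fit, and over all 35 alternatives it lay between 3.33 and 5.17 with adjusted p from 1.10e-16 to 0.723.

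DSC1, known from the upper epidermal layers and the main antigen of canine pemphigus foliaceus, was scarce in both tumors and was not tested. In HGA its level ranged from 0 to 9.71 CPM with a median of 4.64, and HGA 9 and 10 had no count. The primary AGASAC had 2 counts in all, both in AGASAC 3. The pooled ratio was 69.9, with a counting interval of 18.9 to 585.

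DSC2, the desmocollin that accompanies DSG2 in simple epithelia, had the most counts of the 6 desmosomal cadherins in 9 of 11 primary AGASAC and in all 4 metastases, while DSG2 had more in AGASAC 6 and as many in AGASAC 8. It ranged from 34.4 to 345 CPM in HGA with a median of 216 and from 46.7 to 369 CPM in primary AGASAC with a median of 131. HGA 4 stood lowest with 56 counts, and its next neighbor, HGA 10, had 101 CPM. The log2FC of 0.56 ± 0.40 (SE), with an interval of -0.27 to 1.38 and an adjusted p of 1, did not pass the test, and it was -0.18 within extraction batch 8 and -0.38 within naming series A.

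The make-up of the cadherin counts showed the contrast within each sample. Since each transcript yields about one read, counts of different genes were compared without division by length. Of the counts on the 6 cadherin genes, DSG1 took a mean of 41.6% ± 5.65 (SD, n = 10) in HGA, DSC2 28.6% ± 8.87, DSG2 11.0% ± 3.97, DSC3 9.69% ± 2.08, DSG3 8.48% ± 5.39 and DSC1 0.587% ± 0.439. DSG1 had the largest share in 9 of 10 HGA, and DSG2, DSC3 and DSG3 lay within their spread of each other. In primary AGASAC, DSC2 took 66.4% ± 13.9 (SD, n = 11) and DSG2 32.4% ± 14.0, and the metastases had 78.0% ± 4.67 and 19.9% ± 4.52 (SD, n = 4). DSG2 and DSC2 together made up 26.1% to 48.1% of the counts in HGA, 96.9% to 100% in primary AGASAC and 97.2% to 99.2% in the metastases. Shares are parts of a sum, so those of DSG2 and DSC2 must be large where the other cadherins have few counts. Their mean levels were not higher in primary AGASAC, with 52.4 CPM of DSG2 and 145 CPM of DSC2 against 72.1 and 209 CPM in HGA. HGA 4 departed from the other HGA, with 7.95% DSC2 (exact binomial 95% interval 6.06% to 10.2%) and 21.9% DSG3 (18.9% to 25.1%). In the RefSeq annotation of assembly UU_Cfam_GSD_1.0, which is not the assembly of the counts, the 6 genes and DSG4 are 7 consecutive protein-coding genes in the order DSG2, DSG3, DSG4, DSG1, DSC1, DSC2 and DSC3, so that the DSG2 and DSC2 of AGASAC are not neighbors.

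**Figure D2:**
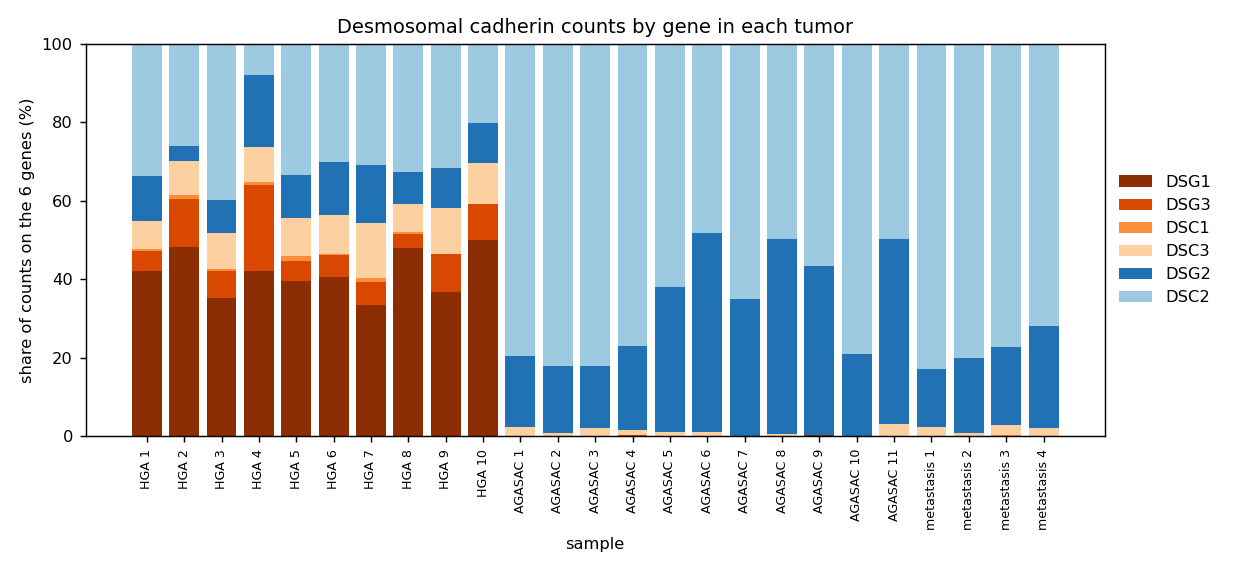
Share of the counts on the 6 desmosomal cadherin genes taken by each gene (y-axis, %) in each of the 25 samples (x-axis), as stacked bars. DSG2 and DSC2 (blue) make up 26.1% to 48.1% in HGA and 96.9% to 100% in primary AGASAC. The shares do not show levels.

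Of the armadillo proteins 0 of 3 were called between HGA and primary AGASAC, where 25.1% of all genes were called. Plakoglobin, JUP, which occurs in desmosomes and adherens junctions, had 78.9 to 193 CPM in HGA with a median of 108 and 80.7 to 171 CPM in primary AGASAC with a median of 132. The HGA mean of 118 ± 32.6 and the AGASAC mean of 129 ± 32.2 CPM (SD, n = 10 and 11) differed by less than either SD. With a log2FC of -0.10 and an interval of -0.46 to 0.27, a log2FC of 1 or -1 lay outside it.

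Plakophilin 3, PKP3, which is found in most epithelia, had 9.46 to 43.7 CPM in HGA with a median of 30.5 and 6.60 to 26.1 CPM in primary AGASAC with a median of 15.4. HGA 10 was the lowest HGA with 22 counts. Its log2FC was 0.86 ± 0.26 (SE) with an adjusted p of 0.0761, which misses the threshold. With extraction batch as a covariate the log2FC was 1.2 with an adjusted p of 0.00413 and PKP3 was called, and over all alternatives the adjusted p ranged from 0.00413 to 1.

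Plakophilin 1, PKP1, a plaque protein of the upper layers of stratified epithelia, ranged widely among tumors of one kind. In 9 HGA it lay between 41.2 and 127 CPM, and in HGA 10 it had no count. Among primary tumors of AGASAC, number 7 had 70.6 CPM, number 2 had 68.0 CPM and number 10 had 38.8 CPM, while numbers 6, 9 and 11 had 2, 0 and 1 counts. The AGASAC values thus ran from the level of HGA down to 0. The log2FC was 1.75 ± 0.75 (SE) with an interval of 0.21 to 3.29 and an adjusted p of 0.569.

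DSP, which ties the plaque to keratin, had the highest level of the 10 genes in 8 of 10 HGA, and DSG1 in HGA 2 and 10. It ranged from 211 to 704 CPM in HGA with a median of 395 and from 31.8 to 328 CPM in primary AGASAC with a median of 141. HGA 10 with 211 CPM and HGA 4 with 261 CPM lay within the range of AGASAC, whose highest values were 328 CPM in AGASAC 3 and 305 CPM in AGASAC 1. Fitted over all 21 primary tumors, the log2FC was 1.46 ± 0.33 (SE) with an adjusted p of 0.00872. The call was lost within batch 5 (log2FC 1.28), batch 6 (2.30, adjusted p = 0.135), batch 8 (0.94) and naming series A (0.69, adjusted p = 0.932), where the AGASAC are tumors 1 to 3, and over the 35 alternatives the adjusted p ranged from 0.000825 to 1.

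**Figure D3:**
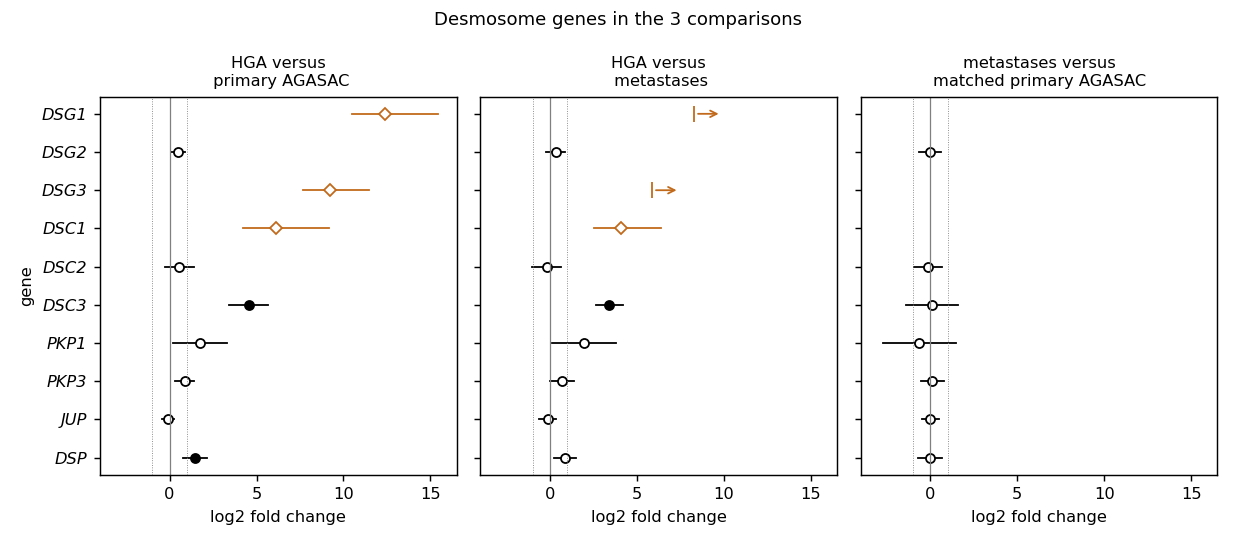
Log2FC of each desmosome gene (y-axis) in the 3 comparisons, with 95% intervals on the x-axis, circles for fitted values (filled where called), diamonds for pooled ratios of genes with 1 to 3 counts in the second group, and arrows for lower bounds where that group had none. The interval of JUP in HGA versus primary AGASAC runs from -0.46 to 0.27. All 7 intervals of the metastases versus matched primary tumors, fitted without pairing by dog, include 0.

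Levels also varied among the primary AGASAC. The dogs of AGASAC 1 to 4 had a sampled metastasis and those of AGASAC 5 to 11 did not, a split that was examined after the values had been seen. DSC2 was 342, 160, 369 and 193 CPM in AGASAC 1 to 4 and 46.7 to 144 CPM in AGASAC 5 to 11, with a median of 51.3, so the ranges did not overlap. The share of all genes without overlap in this split was not computed, so the separation of DSC2 cannot be weighed against it. The log2FC was 1.79 ± 0.37 (SE) with an adjusted p of 1 in edgeR and 0.0596 in DESeq2, in a comparison that called 0.00755% of 13242 genes and gave 7.63% an unadjusted p under 0.05. DSP was 305, 189, 328 and 141 CPM against 31.8 to 194 CPM with a median of 79.5, and its log2FC of 1.19 ± 0.45 had an adjusted p of 1. All 3 tumors of the first set with a known file name were in naming series A and all 7 of the second set in series B, so naming series and metastasis cannot be told apart.

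Between the metastases and the primary tumors of the same 4 dogs, 7 desmosome genes could be tested and 0 were called. The intervals and p-values given here for this comparison come from a fit that did not use the pairing by dog. Over all 12629 genes, 0% were called, 145 (1.15%) had an unadjusted p under 0.05 and DESeq2 called 5. Of the 7 desmosome genes, 0 had an unadjusted p under 0.05, DESeq2 called 0, and 0 were without overlap between the sites, against 1.14% of all genes. DSG2 was 68.8, 43.5, 62.1 and 59.7 CPM in metastases 1 to 4 and 78.1, 33.7, 71.5 and 53.4 CPM in the primary tumors, with a log2FC of -0.02 and an interval of -0.63 to 0.60. DSC2 was 382, 183, 242 and 166 CPM in the metastases, and its log2FC of -0.14 had an interval of -0.93 to 0.66. The order of the 4 dogs in DSC3 was the same at both sites, 10.4, 1.86, 8.04 and 4.79 CPM in the metastases against 9.64, 1.63, 8.90 and 3.34 CPM in the primary tumors.

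Of the plaque genes, JUP, PKP3 and DSP had intervals between -1 and 1. JUP was 178, 118, 99.1 and 130 CPM in the metastases, with a log2FC of -0.01 and an interval of -0.51 to 0.49. PKP3 was 19.8, 16.4, 16.4 and 19.8 CPM in the metastases, with a log2FC of 0.10 and an interval of -0.57 to 0.76. PKP1 differed more between the sites in dogs 2 and 4. It was 21.1, 27.1, 27.7 and 0.319 CPM in the metastases and 16.9, 68.0, 27.9 and 7.23 CPM in the primary tumors, which is 1 count in metastasis 4 and 26 counts in AGASAC 4. The log2FC was -0.65 and the interval of -2.75 to 1.44 was wide. DSP was 324, 194, 211 and 206 CPM in the metastases, and its log2FC of -0.04 had an interval of -0.72 to 0.64.

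DSG1 and DSG3 had no count in any metastasis, and DSC1 had 2 counts in metastasis 3 and 1 in metastasis 4. These 3 genes were not tested between the sites. Lymphocyte and lymph node stroma markers summed to 38.5 to 53.7 CPM in the metastases and to 12.8 to 35.9 CPM in the matched primary tumors, and skeletal muscle markers to 0.796 to 7.03 CPM and 13.9 to 420.2 CPM. Their part in the values was not tested.

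**Figure D4:**
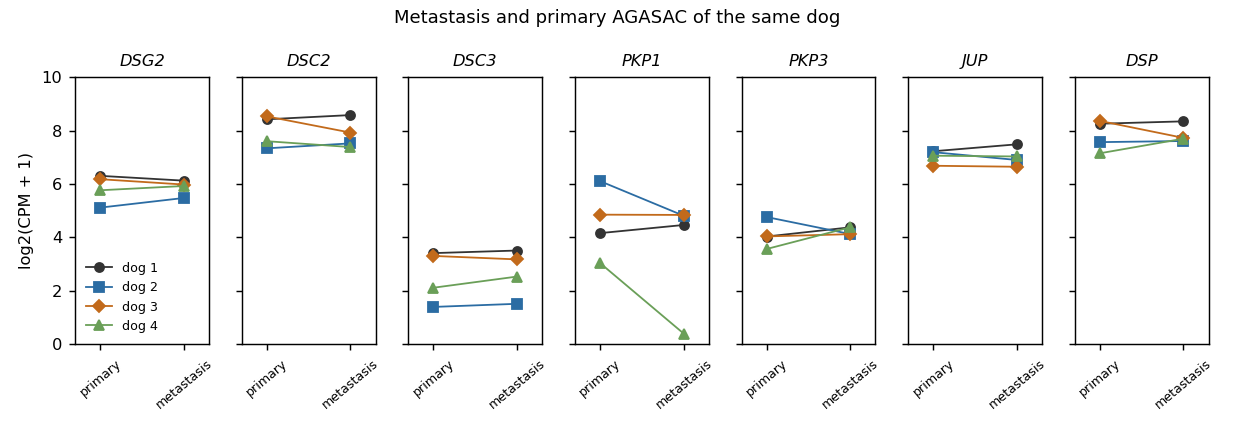
Level as log2(CPM + 1) (y-axis) in the primary tumor and the metastasis (x-axis) of the same dog, with 1 line for each of the 4 dogs and 1 panel for each of the 7 genes tested. Most lines are nearly level, and the steepest is PKP1 of dog 4, from 7.23 to 0.319 CPM.

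HGA against the metastases, which uses the same HGA libraries as the comparison with the primary tumors, tested all 10 genes and called 3 (DSG1, DSG3 and DSC3), each higher in HGA, where 16.1% of 13195 genes were called, 8.4% higher and 7.69% lower in HGA. The groups did not overlap in these 3 genes, and 5.93% of all genes were called higher without overlap. DSG1 and DSG3, with no count in the metastases, passed the filter through HGA alone and so had to differ, so that their calls say nothing beyond their levels. DSG1 was at least 316-fold and DSG3 at least 59.1-fold higher in HGA, with the 0 counts of each metastasis set to 3, and the adjusted p were 1.05e-07 and 7.70e-06. DSC3 had a log2FC of 3.42 ± 0.38 (SE) with an adjusted p of 4.97e-05. With 7 to 32 counts in the metastases, DSC3 too passed the filter only with HGA libraries, so its call is no separate support for a difference. The pooled DSC1 ratio of 17.1 had a counting interval of 5.71 to 84.3, and DSC1 was not called in edgeR (adjusted p = 0.227) but was in DESeq2 (adjusted p = 0.0387) and with Benjamini-Hochberg adjustment (0.0226), within a range of 0.0226 to 0.713 over its alternatives. DSC1, with 3 counts in all metastases, also passed the filter through HGA alone, so these calls say nothing beyond its level.

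DSP was not called against the metastases. Its level was 211 to 704 CPM in HGA and 194 to 324 CPM in the metastases, with a log2FC of 0.85 ± 0.29 (SE), an interval of 0.23 to 1.47 and an adjusted p of 0.349. The log2FC of the other genes were 1.93 for PKP1, 0.67 for PKP3, 0.32 for DSG2, -0.12 for JUP and -0.19 for DSC2, and none passed. Whether DSP differed more from the primary tumors than from the metastases was not tested.

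Other proteins bind or cover desmosomes without being in every one. Of the 7 such desmosome-linked genes listed, 5 were tested between HGA and primary AGASAC and all 5 were called, 4 higher and 1 lower in HGA, where 25.1% of all genes were called and 12.6% were higher, with a median log2FC of 1.21 against -0.03 for all genes. PERP, a membrane protein needed for desmosomes in stratified epithelia, had 80.4 to 1062 CPM in HGA and 13.1 to 60.9 CPM in primary AGASAC, and its log2FC was 3.98 ± 0.34 (SE). PKP2, the plakophilin of simple epithelia and heart, was higher in HGA too, with a log2FC of 2.99 ± 0.56, but within naming series A it had 1.69 and an adjusted p of 0.307 in edgeR and was not called. With a mean of 5.70 CPM in primary AGASAC, PKP2 passed the filter only with HGA libraries, so its call is no separate support for a difference. The plakins EVPL and PPL, which bind keratins at the plaque and form part of the cornified envelope, had log2FC of 1.21 and 1.19 and were lost as calls with library size alone. EVPL also lost its call in 18 of the 21 fits that left out 1 tumor, with log2FC of 1.06 to 1.35, and PPL lost its call without HGA 2 (1.1) and with extraction batch as a covariate (1.06, adjusted p = 0.253). Both also lost it within naming series A. PKP4, a plakophilin-related protein of cell contacts, was lower in HGA, with 51.0 ± 12.3 against 111 ± 32.2 CPM (SD, n = 10 and 11) and a log2FC of -1.09.

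DSG4, the fourth desmoglein, had 0.615 to 5.06 CPM in HGA and no count in any AGASAC sample, so that HGA was at least 2.53-fold higher than the primary tumors. Against the metastases 6 desmosome-linked genes were tested and 4 were called, where 16.1% of all genes were called, PERP with a log2FC of 3.73, PPL with 1.73, CDSN and PKP4 with -1.42. CDSN, corneodesmosin of the cornified layer, had no count in the metastases, passed the filter through HGA alone and was at least 13.0-fold higher in HGA. When 1 sample was left out, CDSN lost its call in 11 and PPL in 12 of 14 fits. Between the metastases and their primary tumors 0 of 5 were called, with a median log2FC of -0.24 against 0.00194 for all genes.

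In the adherens junction, the other cadherin junction of epithelia, 2 of 8 genes tested were called higher in HGA than in primary AGASAC, a share near the 25.1% of all genes called in either direction, with a median log2FC of 0.36. The 2 were NECTIN1, a nectin that binds cells through afadin, with a log2FC of 1.59, and CTNNA1, α-catenin, with 1.18. Against the metastases 1 of 8 was called, NECTIN1 with 1.94, where 16.1% of all genes were called, and the median was 0.50 against 0.02 for all genes. Whether the lists differed from each other was not tested.

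Of the hemidesmosome genes, whose products anchor basal cells to the basement membrane, 4 of 5 were called between HGA and primary AGASAC, 3 higher and 1 lower, where 25.1% of all genes were called, with a median log2FC of 1.06. ITGA6 and ITGB4, the subunits of the hemidesmosomal integrin, had log2FC of 3.81 and 3.04, and PLEC, plectin, had 1.06, which fell to between 0.97 and 1.00 and was not called without HGA 1, HGA 7, AGASAC 1 or AGASAC 11. DST, which encodes a plakin with epithelial and other isoforms, was lower in HGA with a log2FC of -1.77. Against the metastases 4 of 6 were called, where 16.1% of all genes were called, ITGA6 with 3.89, ITGB4 with 3.62, DST with -2.24 and CD151, a tetraspanin partner of the integrin, with -1.38, and the median was 2.50. Without metastasis 2, CD151 was at -0.92 and was not called. Counts per gene did not separate the DST isoforms.

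Proteases that cut desmosomal cadherins and their inhibitor were the last list. Of 6 genes 3 were tested between HGA and primary AGASAC and 2 were called, both higher in HGA, where 25.1% of all genes were called, with a median log2FC of 1.18. SPINK5, the inhibitor of the epidermal kallikreins, had 68.5 ± 38.9 against 0.508 ± 0.643 CPM (SD, n = 10 and 11) and a log2FC of 7.05, and ADAM10, a membrane protease that sheds cadherins, had 1.18, with no call within naming series A (adjusted p = 0.223). SPINK5, with 17 counts in all primary AGASAC and none in the metastases, passed the filter through HGA alone in both comparisons and so had to differ. KLK5 and KLK7, kallikreins that cut the desmosomes of the cornified layer, had no count in any AGASAC sample and were at least 3.58-fold and 5.86-fold higher in HGA than in the primary tumors. KLK14, another kallikrein, had 824 counts (284 CPM) in AGASAC 6, 4.59 CPM in AGASAC 9, at most 1.05 CPM in the other primary AGASAC and at most 2.71 CPM in HGA. Against the metastases 1 of 4 was called, SPINK5, at least 74.2-fold higher in HGA, and the list median was 4.01, or 1.78 with genes at 0 set to their bound. Between the metastases and their primary tumors no gene of the adherens junction (0 of 8), hemidesmosome (0 of 5) or protease (0 of 2) lists was called.

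Markers of the cornified epidermis moved with the HGA samples as well, with a sum of 231 to 1407 CPM in HGA, 61.5 to 239 CPM in primary AGASAC and 64.7 to 116 CPM in the metastases over the 8 of 9 listed genes found. CALML5 had no count in any AGASAC sample. KRT1 and FLG, a suprabasal keratin and filaggrin, had no count in HGA 1, 3, 8, 9 and 10, in which DSG1 was 204 to 415 CPM. In the other 5 HGA, DSG1 was 183 to 432 CPM with KRT1 at up to 148 CPM and FLG at 0.816 to 54.5 CPM. The cornified sum did not follow this split, as HGA 3 and 9, without KRT1 and FLG, had 1407 and 797 CPM, and HGA 8 had the lowest sum, 231 CPM, with DSG1 at 415 CPM. The part of cornified cells in the DSG1 level was not tested. The part of the basal keratins, which summed to at least 3280 CPM in every HGA, in the DSG1, DSG3 and DSC3 differences was not tested. Sums of fibroblast markers overlapped between HGA and primary AGASAC, at 1207 to 5708 and 1006 to 7906 CPM, endothelial sums were 189.7 to 532 and 48.9 to 225 CPM, and skeletal muscle sums were 0 to 22.7 and 3.89 to 869 CPM.

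A desmoglein and its usual desmocollin partner were not found to vary together within a tumor type. Of 6 planned relations 4 could be computed. In primary AGASAC, DSG1 and DSC1 had 2 counts each and DSG3 had 3, which left out DSG1 with DSC1 and DSG3 with DSC3. For DSG1 and DSC1 over the 10 HGA, Pearson's r on log2(CPM + 1) was 0.458 and Spearman's rho 0.474, with permutation p of 0.181 and 0.166, both two-sided, and adjusted p of 0.363 and 0.432 over the 4 relations. Without the 2 tumors farthest from the median DSG1 level, r was 0.830, and within naming series A it was 0.474. DSG2 and DSC2 had r of 0.0456 and rho of 0.236 in HGA, with permutation p of 0.898 and 0.515 and adjusted p of 0.898 and 0.687. In primary AGASAC, DSG2 and DSC2 had r of 0.517 and rho of 0.409, with permutation p of 0.105 and 0.216 and adjusted p of 0.363 and 0.432, and r was 0.358 without the 2 farthest tumors and 0.322 within the 7 tumors of series B. DSG3 and DSC3 had r of -0.272 and rho of -0.103 in HGA, with permutation p of 0.453 and 0.786 and adjusted p of 0.604 and 0.786.

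All 66 pairs of desmosome genes with counts enough within HGA (45 pairs) or primary AGASAC (21 pairs) were computed after the values had been seen, and 0 reached an adjusted p of 0.05 by either measure. The closest pairs of AGASAC both held DSP. DSC2 and DSP had r of 0.849 and rho of 0.818 over the 11 tumors, with permutation p of 0.00111 and 0.00329 and adjusted p of 0.0554 and 0.114 over the 66 pairs, and r was 0.815 without the 2 farthest tumors and 0.707 within series B. PKP1 and DSP had r of 0.837 and rho of 0.791, with permutation p of 0.00168 and 0.00546 and adjusted p of 0.0554 and 0.120, and r was 0.810 without the 2 farthest tumors and 0.888 within series B. AGASAC 9, with no PKP1 count, had the lowest DSP at 31.8 CPM, and AGASAC 3 had the highest DSC2 and DSP of the primary tumors. In HGA the closest pair was DSC2 with DSC3, with r of 0.837 and rho of 0.430, permutation p of 0.00847 and 0.220 and adjusted p of 0.138 and 0.558, and r was 0.00766 without the 2 farthest tumors, so that the relation rested on those tumors.

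**Figure D5:**
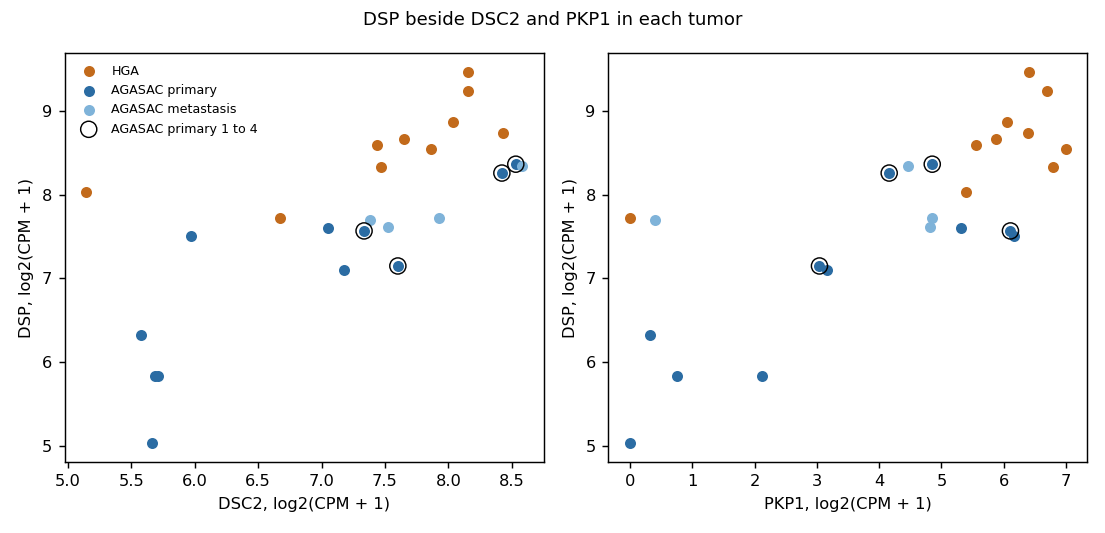
DSP on the y-axis against DSC2 (left) and PKP1 (right) on the x-axis, all as log2(CPM + 1), with 1 point per sample and rings around AGASAC 1 to 4. Among the primary AGASAC, tumors with more DSC2 or PKP1 had more DSP, with r of 0.849 and 0.837.

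For each desmosome gene tested, the gene with the most similar pattern was sought among 9423 genes of at least 10 CPM on average, by Pearson's r of log2(CPM + 1) over the 21 primary tumors after each tumor type was centered on its mean. It was TRIM32 for DSG1 (r = 0.843), FOS for DSG2 (0.742), CLCA2 for DSG3 (0.832), NABP2 for DSC2 (0.824) and ADAM23 for DSC3 (0.838). For the plaque genes it was CYB5R3 for PKP1 (0.839), SPAG7 for PKP3 (0.834), TMEM126B for JUP (0.765) and GRHL1, a transcription factor of epithelia, for DSP (0.792). DSC2 with NABP2 and DSP with GRHL1 had r over 0.78 in HGA and AGASAC separately, whereas DSC3 with ADAM23 had r of 0.0532 in HGA and 0.863 in primary AGASAC. Each is the highest of many values over shared libraries and is given as a description only.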

How the data were processed

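The authors trimmed the reads with cutadapt, aligned them to CanFam3.1 with STAR, counted them on genes with featureCounts in 2 rounds (the second with 3′ ends extended) and split multi-mapped reads evenly, so reads shared by related genes could be divided. The values used here are the raw counts they deposited, one whole number for each gene in each sample. The deposited table also holds size-factor normalized counts as a signal, and the mean normalized count, log2 fold change and p-value of the authors' own comparison, all unused.

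The test was edgeR 4.0.16 under R 4.3.3: filterByExpr (minimum count 10, minimum total 15), TMM, the quasi-likelihood test with no covariate and Benjamini-Yekutieli adjustment over all genes tested. The study used DESeq2, which was an alternative here (version 1.42.0). Standard errors are log2FC divided by the root of F, and intervals are 95%. Genes with 1 to 3 counts in a group are given as pooled ratios, and those with 0 as bounds from 3 counts per library. Correlations used a pseudocount of 1 and 100000 permutations. RNA extraction batches and file naming series came from the study's sample table.

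The 10 genes, the lists and the tests were chosen with earlier results of these data known. All 10 were named in each comparison, with up to 4 called genes per related list by size of log2FC. DSG4, KLK5, KLK7, KLK14, PKP4, KRT79 and the HGA tumors that stand apart were named after their values were seen. The metastases and primary tumors of 1 number came from the same dog by the labels, and their deviations from the group means correlated at 0.428 to 0.730 in 4 of 4 dogs. No 2 libraries of a group agreed within sampling noise (chi-square per degree of freedom of at least 12.2). The p-values measure the spread between these samples. Scripts were tested on simulated data.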

Additional observations from a re-analysis of the deposited data

Results flagged for a closer look

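DSP in metastasis 1 was 324 CPM (999 counts), apart from 194 to 211 CPM in the other 3 metastases, and its gap to the nearest of them was 0.873 of the group's range, above Dixon's 95% critical value of 0.829. The primary tumor of the same dog, AGASAC 1, had 305 CPM. Of 18 groups of values tested in this way 1 was marked, and chance marks about 1 group in 20. Without metastasis 1 no desmosome gene gained or lost a call.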

How the results depend on the processing

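The count of desmosome genes called in HGA versus primary AGASAC, 4, became 2 with a stricter filter on low counts, which removed DSG1 and DSG3 from the test, 2 within extraction batch 5 and 2 within batch 8, where fewer samples entered the fits. It was 3 within batch 6 and naming series A, and 5 with DESeq2, without a filter and with the spread of all 25 samples (DSC1 added) or with batch as a covariate (PKP3 added). Of all genes tested, 2905 of 12023 were called with the stricter filter, 262 of 12356 within batch 5 and 338 of 13758 within batch 8. Batch 6 gave 637 of 13159, naming series A 2157 of 13433 and DESeq2 4439 of 17665. Without a filter 3951 of 24332 were called, with the spread of all 25 samples 3888 of 14752, and with batch as a covariate 3003 of 12070. Leaving out each sample in turn left 4 desmosome genes called in all 21 fits, 3 in all 14 of HGA versus metastases and 0 in all 8 of the metastases versus matched primary tumors. With the replicate number as a block, which dropped AGASAC 11 from the first comparison and HGA 5 to 10 from the second, the counts were 4, 3 and 0. In all these fits DSG1, DSG3 and DSC3 made up 3 of the 4 calls and all 3 against the metastases. They passed the filter of the main fits only with HGA libraries, so these unchanged counts are no separate support for a difference. HGA and AGASAC share only the numbers (correlations of deviations between -0.096 and 0.055), and the dog block of the metastases changed no call of a desmosome gene, with 1 gene called among all.

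Changes of sign were all in values under the threshold. They were JUP within batch 5 (0.50), DSC2 within batch 8 (-0.18) and naming series A (-0.38), JUP of HGA versus metastases with the block (0.12), and the HGA correlation of DSG2 and DSC2 with library size alone (-0.107) and within naming series A (-0.0576). Of the metastases against all 11 primary tumors, DSG2 was 0.15, DSC2 0.73, JUP 0.0115 and DSP 0.60, and with the dog block DSG2 was 0.0300 and DSP 0.00937. Leaving out 1 sample, the metastases gave -0.21 to 0.14 for DSG2, -0.43 to 0.0602 for DSC2, -0.26 to 0.42 for DSC3, -0.98 to 0.15 for PKP1, -0.0612 to 0.39 for PKP3, -0.18 to 0.10 for JUP and -0.23 to 0.14 for DSP, and HGA versus metastases -0.34 to 0.0845 for DSC2 and -0.23 to 0.0410 for JUP. The cause was not tested. With library size alone EVPL, PPL, PLEC, CTNNA1 and ADAM10 lost their calls between HGA and primary AGASAC, and over fits that left out 1 sample the 4 desmosome-linked genes called in HGA versus metastases became 2 to 4. With DSG4 added to the cadherin sum, the DSG1 share of HGA was 41.5%. Levels of DSG1, DSG3 and DSC1 in AGASAC lay near what 3 counts allow, 0.729 to 1.05 CPM in a primary tumor and 0.796 to 0.973 CPM in a metastasis, and differences below that were not detectable at this depth. Over all genes, the 3032 calls among 12070 genes of HGA versus primary AGASAC became 262 of 12356, 637 of 13159 and 338 of 13758 within batches 5, 6 and 8. Within naming series A they became 2157 of 13433, and with batch as a covariate 3003 of 12070. The 2124 calls among 13195 genes of HGA versus metastases became 3536 with Benjamini-Hochberg adjustment and 662 of 12413 with the block. Of the lists, the 5 desmosome-linked genes called became 1 within each of batches 5, 6 and 8, 2 within naming series A and 4 with batch as a covariate, the 4 hemidesmosome genes became 0, 2 and 1 within the batches and 5 within naming series A, the 2 adherens junction genes became 0 within each batch, and the 2 of the protease list became 0, 1 and 0, and 1 within naming series A.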
